A study of Mus musculus with 22 samples.

Results

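Guanylate-binding proteins (GBPs) and immunity-related GTPases (IRGs) are interferon-induced GTPases that macrophages use against bacteria and parasites inside the cell. They were followed here by every array probe whose RefSeq accession belongs to 1 of 10 genes: Gbp2, Gbp3, Gbp5, Gbp6 and Gbp7 of the GBP family, and Irgm1, Irgm2, Igtp, Iigp1 and Tgtp1 of the IRG family. These genes had 13 probes among the 28103 probes that passed the filter on dim signal, and they were 10 of the 22383 genes those probes stand for. Bone marrow-derived macrophages (BMDM) were grown from the femurs of C57BL/6 mice, labelled male, over 9 days in 10 ng/ml of the growth factor M-CSF, and then kept for 360 min in medium or in medium with 100 ng/ml LPS, the cell wall component of Gram-negative bacteria. The mice were wild-type (wt, 12 to 13 weeks old), deficient in the kinase MK2 (MK2-/-, 10 to 13 weeks) or deficient in both MK2 and MK3 (MK2/3-/-, 11 to 14 weeks), so that the cells lacked these kinases throughout their development. The 22 single-colour arrays comprised 3 of LPS-treated and 4 of medium-treated wt BMDM, 4 and 4 of MK2-/- BMDM, and 4 and 3 of MK2/3-/- BMDM, and the study's methods describe its replicates as independent experiments.

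LPS is sensed by TLR4, which switches on inflammatory genes and interferon beta. Interferon beta acts back on the macrophage through the IFNAR receptor, and the interferon-induced genes carry the interferon-stimulated response element (ISRE), which IRF proteins can bind, or the gamma-activated site (GAS), known from the response to interferon gamma. GBPs assemble on the vacuoles that enclose pathogens and on LPS-bearing bacterial surfaces, and help caspase-11, encoded by Casp4, to detect LPS in the cytosol. The IRGs fall into regulators (Irgm1, Irgm2 and Igtp, which is also called Irgm3), which sit on the cell's own membranes and hold the others inactive, and effectors such as Iigp1 and Tgtp1, which load onto the pathogen vacuole and break it. MK2 and MK3 are kinases activated by p38 and are best known for controlling the stability and translation of cytokine mRNAs.

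The choice of the members used no promoter sequence, and their promoters are shown first. RefSeq promoter windows of GRCm38.p6, from 250 bases before to 50 bases after the gene's start, were at hand for 8 of the 10 genes; Gbp6 and Iigp1 were not searched. The ISRE core, searched on both strands as a pair of GAAA words separated by any 2 bases, was in at least 1 window of all 8 genes and in 3.44% of the 32851 promoter windows of the genome. The GAS motif TTCNNNGAA, which reads alike on both strands, was in windows of 5 of the 8 (Gbp5, Gbp7, Irgm2, Igtp and Tgtp1) and in 8.3% of all windows. A match is a description of the letters and was not tested for binding.

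The stretch around the ISRE core is shown for each gene, 5′ to 3′ on the gene's strand. Every match of the ISRE core, and of a GAS motif near it, is in capitals. In Gbp7 the GAS match lies at bases -87 to -79 and the ISRE core at -53 to -44 from the gene's start, so they do not adjoin.
Gbp2 (chr3:142620592-142620625, plus strand): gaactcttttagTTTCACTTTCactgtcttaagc
Gbp3 (chr3:142559987-142560026, plus strand): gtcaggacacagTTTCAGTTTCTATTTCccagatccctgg
Gbp5 (chr3:142496757-142496790, plus strand): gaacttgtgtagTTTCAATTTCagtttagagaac
Gbp7 (chr3:142530237-142530304, plus strand): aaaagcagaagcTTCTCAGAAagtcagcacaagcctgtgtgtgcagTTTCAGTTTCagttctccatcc
Irgm1 (chr11:48871423-48871462, minus strand): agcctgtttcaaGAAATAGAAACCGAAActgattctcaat
Irgm2 (chr11:58214890-58214934, plus strand): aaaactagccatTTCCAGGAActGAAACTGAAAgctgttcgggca
Igtp (chr11:58199499-58199543, plus strand): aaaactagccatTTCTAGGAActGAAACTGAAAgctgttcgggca
Tgtp1 (chr11:48992302-48992346, minus strand): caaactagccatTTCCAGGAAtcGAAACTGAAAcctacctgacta

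In the 4 Gbp genes the ISRE core lay on the strand opposite to the gene, so that it reads as a pair of TTTC words above, and in the 4 Irg genes it lay on the gene's strand. Gbp3 and Irgm1 each held a pair of overlapping ISRE matches. In Irgm2, Igtp and Tgtp1 a GAS motif began 11 bases before the ISRE core. That arrangement was found in 5 of the 32851 windows of the genome, or 0.0152%, and the other 2 belonged to Tgtp2 and Gm12185. The count used the spacing and strand of these 3 members, which are in it by definition, so it is a description. The Igtp and Irgm2 stretches differed at 1 of their 45 bases and the promoter windows of these genes shared a run of 61 identical bases, whereas the Tgtp1 stretch differed from that of Igtp at 12 bases. A second RefSeq start of Gbp3 had neither motif in its window.

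**Figure D1:**
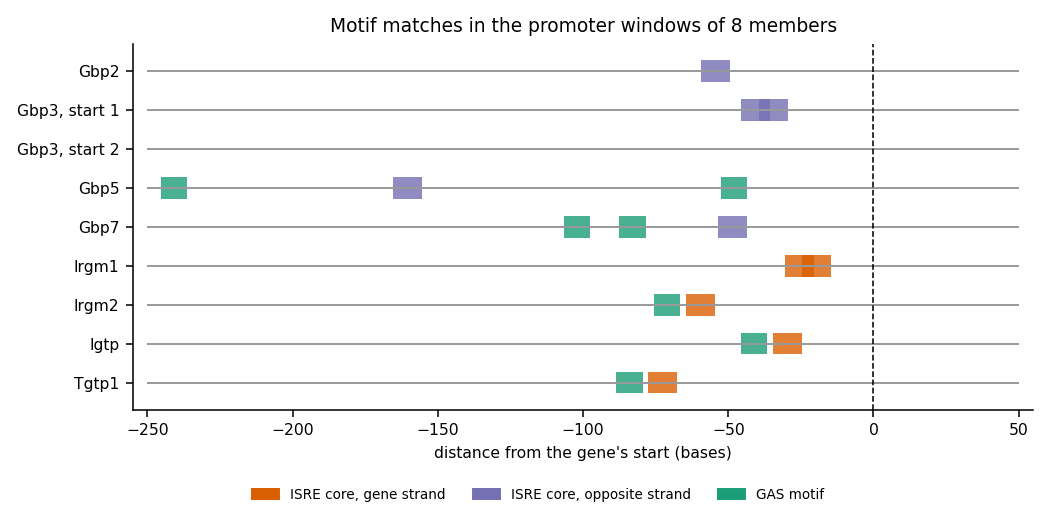
Position of ISRE core and GAS motif matches in the 300-base promoter windows of 8 members, in bases from the gene's start (dashed line); Gbp3 has 2 windows. The ISRE matches of the Gbp genes lie on the opposite strand and those of the Irg genes on the gene's strand, and in Irgm2, Igtp and Tgtp1 a GAS match sits directly before the ISRE match.

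Before the members, the labels were checked on the arrays. The Mapkapk2 transcript (MK2) had a mean log2 signal of 14.89 ± 0.55 (SD, n = 3) in LPS-treated wt BMDM, 11.61 ± 0.3 (n = 4) in MK2-/- and 11.02 ± 0.16 (n = 4) in MK2/3-/- BMDM. Mapkapk3 (MK3) was at 12.12 ± 0.16, 12.35 ± 0.3 and 8 ± 0.41 in the same groups, so that it was lower than in wt only in the MK2/3-/- BMDM, and whether these probes lie in the deleted exons was not tested. The 6 measured macrophage marker genes were well above background on all 22 arrays. Each genotype was hybridised on a slide of its own, and the wt slide was scanned on another day than both other slides, so genotype and slide, and for wt also scan day, cannot be told apart in a direct comparison of genotypes, whereas LPS and medium were compared within a slide. A pair of MK2-/- arrays, replicate 3 in LPS and in medium, had a mean log2 signal of Y-linked probes of 2 and 2.66, against 10.59 to 11.77 on all other arrays, which goes against the label male. RNA of the whole culture was measured, so fewer cells of a type and less RNA per cell cannot be told apart.

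LPS raised all 10 GTPase genes in all 3 genotypes. Among these 10 genes the GBPs rose most. Their log2 differences between LPS and medium were 5.63 to 6.66 in wt BMDM, which are changes of 49.4-fold to 101-fold. The IRGs rose by 3.33 to 4.48, or 10.1-fold to 22.3-fold. Without the array of wt medium replicate 4, on which the Gbp genes were already high, the wt rises of the Gbp genes were 5.98 to 7.46, or 63.3-fold to 176-fold. The median rise of the 10 genes was 5.05 in wt, 5.43 in MK2-/- and 5.3 in MK2/3-/- BMDM, beside medians of all genes of -0.04, -0.01 and 0.01. Each rise passed limma's test at an adjusted p below 0.05. By that test, 18.6% of all genes rose in wt, 17.6% in MK2-/- and 20.3% in MK2/3-/- BMDM. The LPS and medium arrays of a genotype did not overlap for any member, and the share of all genes without such overlap was not counted.

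**Figure D2:**
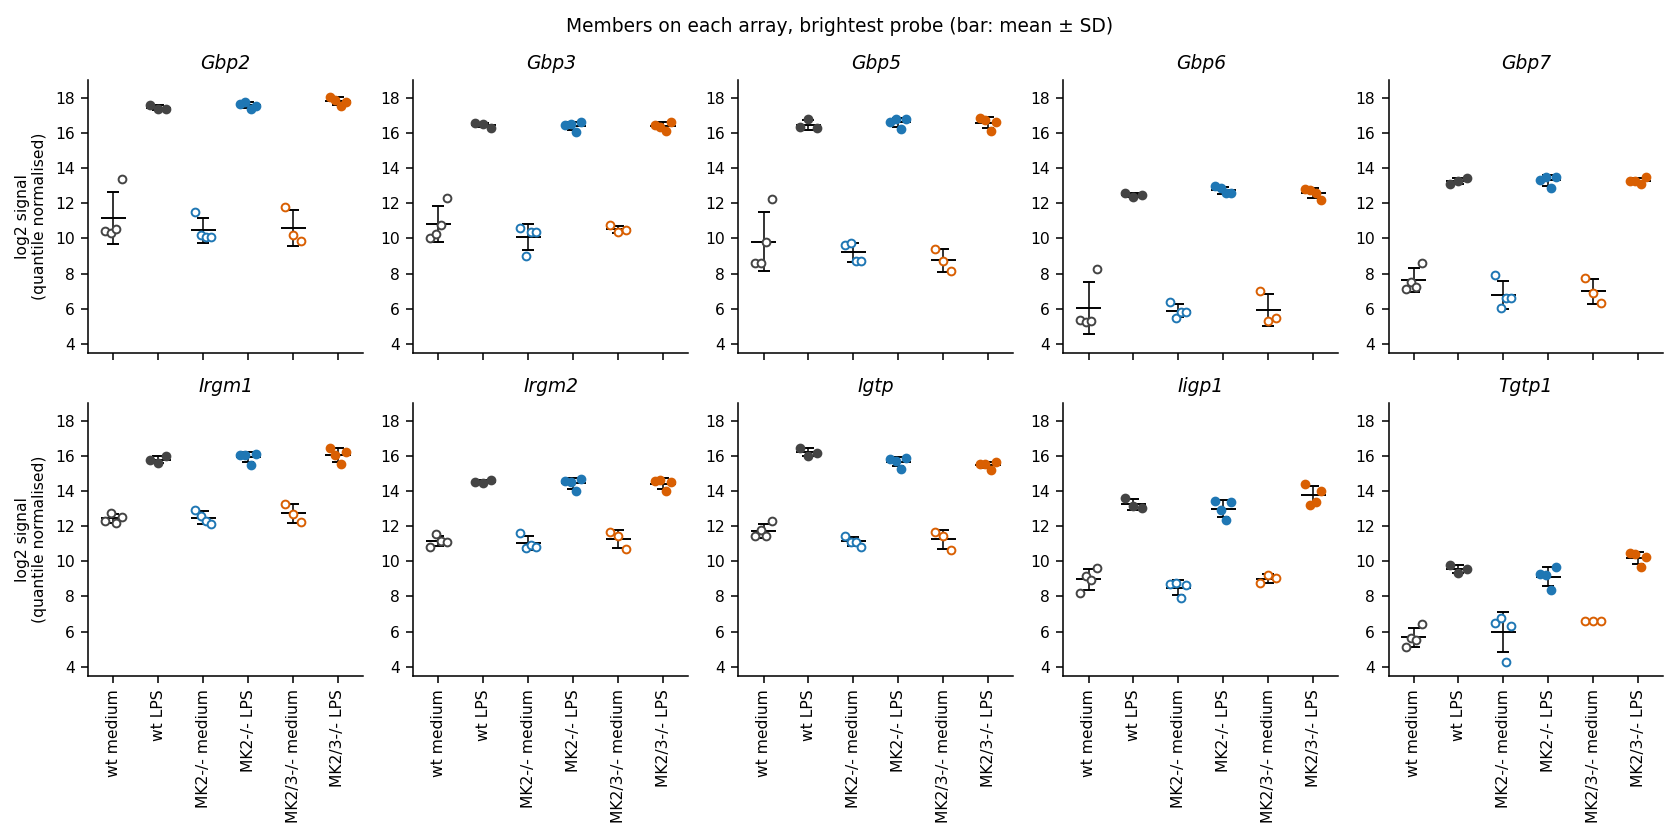
Quantile-normalised log2 signal of the brightest probe of each member on each array, in the 6 groups; open points are medium, filled points LPS, and bars give the mean ± SD. For every member and genotype the LPS arrays lie above all medium arrays, and the LPS arrays of the 3 genotypes overlap except for Igtp, lower in MK2/3-/- and MK2-/- than in wt BMDM, and Tgtp1, higher in MK2/3-/- than in MK2-/- BMDM.

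Gbp2, which is recruited to pathogen vacuoles, is given first. Its log2 signal was 17.59, 17.38 and 17.36 on the wt LPS arrays and 10.4, 10.32, 10.51 and 13.38 on the wt medium arrays. The last medium array stood far above the other 3 and still below every LPS array. On the MK2-/- arrays Gbp2 was at 17.63, 17.79, 17.36 and 17.56 with LPS and at 11.52, 10.22, 10.05 and 10.05 in medium, and on the MK2/3-/- arrays at 18.03, 17.9, 17.51 and 17.76 with LPS and at 11.79, 10.17 and 9.85 in medium. The rise was 6.29 ± 0.59 (SE) in wt, 7.13 ± 0.54 in MK2-/- and 7.19 ± 0.59 in MK2/3-/- BMDM, with limma's adjusted p of 8.69e-08, 3.14e-09 and 8.39e-09.

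Gbp5, a GBP known to promote inflammasome activation, showed the largest rise among the brightest probes of the 10 genes in all 3 genotypes. Its log2 signal went from 8.62, 8.61, 9.82 and 12.22 in wt medium to 16.33, 16.8 and 16.29 in wt LPS. In MK2-/- BMDM it went from 9.62, 9.75, 8.69 and 8.73 to 16.61, 16.78, 16.25 and 16.77, and in MK2/3-/- BMDM from 9.39, 8.71 and 8.13 to 16.84, 16.75, 16.13 and 16.62. The spread lay in the medium arrays, while the 11 LPS arrays of all genotypes fell between 16.13 and 16.84. The rises of 6.66 ± 0.6, 7.4 ± 0.55 and 7.84 ± 0.6 correspond to 101-fold, 169-fold and 229-fold. Without wt medium replicate 4 the wt rise of Gbp5 was 7.46 ± 0.38, or 176-fold, and that of Gbp2 was 7.03 ± 0.4, or 131-fold in place of 78.2-fold.

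The other GBPs behaved alike. Gbp3 rose by 5.63 ± 0.42 in wt, 6.33 ± 0.38 in MK2-/- and 5.86 ± 0.42 in MK2/3-/- BMDM, and Gbp7, which has been linked to the NADPH oxidase, by 5.65 ± 0.4, 6.52 ± 0.37 and 6.3 ± 0.4. Gbp6, the only member on the chromosome 5 cluster of Gbp genes, rose by 6.44 ± 0.55, 6.86 ± 0.51 and 6.66 ± 0.55 on its brighter probe, and in wt by 7.18 ± 0.33 without wt medium replicate 4. Its second probe read a smaller rise of 2.86 ± 0.68, 4.15 ± 0.63 and 4.01 ± 0.68, with wt medium arrays at 6.46 to 9.82 and wt LPS arrays at 10.66 to 11. The Gbp genes of this cluster are close paralogues, and which of them each probe detects was not tested.

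**Figure D3:**
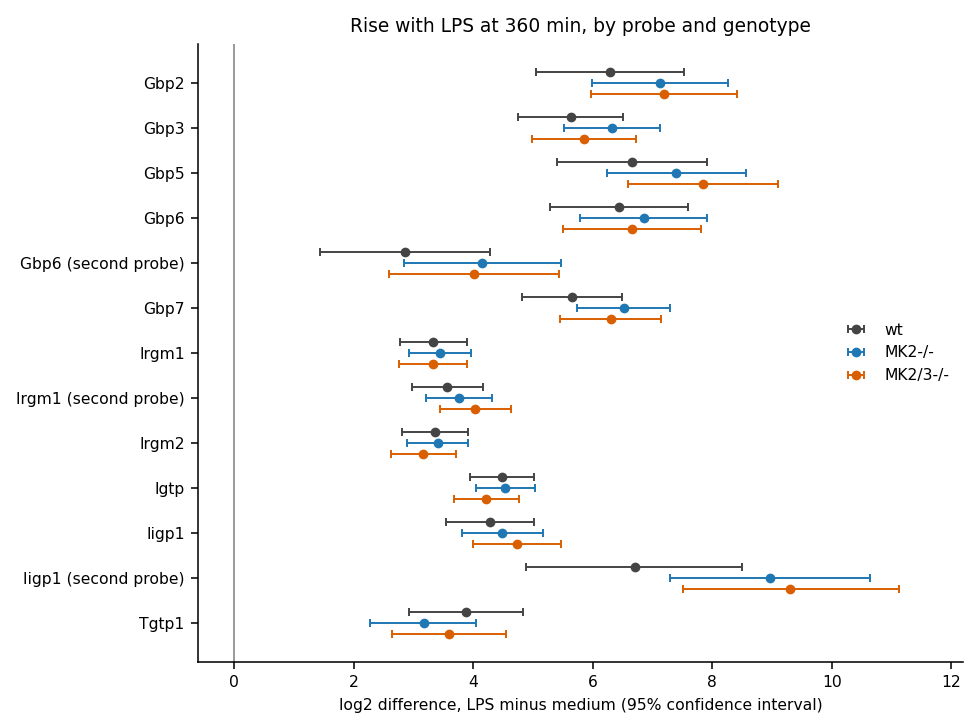
log2 difference between LPS and medium (x axis) for the 13 probes of the 10 members (y axis) in wt, MK2-/- and MK2/3-/- BMDM, with 95% confidence intervals from limma. The brightest probes of the Gbp genes lie between 5.63 and 7.84 and those of the Irg genes between 3.16 and 4.73, and the second probes of Gbp6 and Iigp1 fall outside the range of their families.

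Among the IRGs, the regulators are taken first. Irgm1, which also guards autophagy and mitochondria, was at 12.31, 12.78, 12.19 and 12.55 in wt medium and at 15.75, 15.62 and 16 in wt LPS. Its rise was 3.33 ± 0.27 in wt, 3.45 ± 0.25 in MK2-/- and 3.33 ± 0.27 in MK2/3-/- BMDM, and its second probe gave 3.57 ± 0.28, 3.76 ± 0.26 and 4.03 ± 0.28. Irgm2, a regulator that has been placed at the Golgi apparatus, rose by 3.36 ± 0.26, 3.41 ± 0.24 and 3.16 ± 0.26. Igtp, the third regulator, rose by 4.48 ± 0.26, 4.54 ± 0.24 and 4.22 ± 0.26. Igtp was measured by 10 spots per array, whose SD between spots was at the median 0.157 on the log2 scale.

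Both effectors rose as well. Iigp1, which is loaded onto the vacuole of Toxoplasma, rose by 4.28 ± 0.35 in wt, 4.49 ± 0.33 in MK2-/- and 4.73 ± 0.35 in MK2/3-/- BMDM on its brighter probe. The second Iigp1 probe read 4.06, 5.65, 5.03 and 8.09 in wt medium and 12.76, 12.28 and 12.17 in wt LPS, a rise of 6.7 ± 0.86 (7.49 ± 0.78 without wt medium replicate 4), and it rose by 8.97 ± 0.8 and 9.31 ± 0.86 in the MK2-/- and MK2/3-/- BMDM. It was not well above background on 3 of the 4 MK2-/- medium arrays and 1 of the 3 MK2/3-/- medium arrays. With the second probes of Gbp6 and Iigp1, the rises of the families overlapped. The order of GBPs above IRGs thus rests on the brightest probe of each gene and on the choice of the 10 members. Tgtp1 read 5.11, 5.62, 5.55 and 6.42 in wt medium and 9.77, 9.31 and 9.59 in wt LPS, and rose by 3.88 ± 0.46, 3.17 ± 0.42 and 3.6 ± 0.46. Tgtp1 and its neighbour Tgtp2 are nearly identical genes, and the probe named for Tgtp2 rose by 5.97 ± 0.61 in wt BMDM. The mean log2 signal of Gbp10, a GBP outside the members, was 6.73 in wt medium and 8.65 in wt LPS. The order of the families therefore did not hold for all of their relatives.

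All 30 rises (10 members in 3 genotypes) kept their direction and an adjusted p below 0.05 in each of the 38 other settings that could be fitted, with a highest adjusted p of 0.00977. Scaling each array to its 75th percentile moved the median LPS difference of all genes to 0.3 in wt, 0.28 in MK2-/- and 0.29 in MK2/3-/- BMDM.

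After LPS, the loss of MK2 or of MK2 and MK3 was accompanied by no called difference in a Gbp gene. MK2-/- differed from wt BMDM by -0.05 to 0.26 over the 5 Gbp genes, MK2/3-/- from wt by -0.06 to 0.36, and MK2/3-/- from MK2-/- by -0.16 to 0.22, all on the log2 scale. None of these differences passed the test. The 95% confidence intervals of limma ran from -1.13 to 1.41 for MK2-/- against wt and from -1.15 to 1.58 for MK2/3-/- against wt. For Gbp3 and Gbp7 the intervals against wt lay within 2-fold in either direction, and for Gbp2, Gbp5 and Gbp6 they reached beyond 2-fold. These intervals use a single estimate of the spread per probe over all 6 groups, so they are not the scatter of the LPS arrays alone. For Gbp2 the SD was 0.13, 0.18 and 0.22 in the wt, MK2-/- and MK2/3-/- LPS groups. In the medium groups it was 1.49, 0.71 and 1.04. The values of Gbp5 and Gbp7 against wt changed sign with scaling to the 75th percentile, as did that of Gbp6 in MK2/3-/- BMDM and those of Gbp3 and Gbp5 between MK2/3-/- and MK2-/- BMDM. Of the other regulators, Irgm1 differed from wt by 0.14 ± 0.27 in MK2-/- and 0.27 ± 0.27 in MK2/3-/- BMDM, and Irgm2 by -0.08 ± 0.26 and -0.09 ± 0.26, without passing the test.

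Igtp was the only member called between genotypes after LPS. Its log2 signal was 16.46, 15.99 and 16.19 in wt, 15.82, 15.71, 15.28 and 15.87 in MK2-/- and 15.53, 15.53, 15.22 and 15.64 in MK2/3-/- BMDM. All MK2-/- and MK2/3-/- arrays thus lay below all wt arrays. The difference of MK2/3-/- from wt was -0.74 ± 0.26 (95% confidence interval -1.27 to -0.2), a 1.66-fold lower signal, with limma's adjusted p of 0.0448. The difference of MK2-/- from wt was -0.54 ± 0.26, with limma's adjusted p of 0.164, and MK2/3-/- and MK2-/- differed by -0.19 ± 0.24. Igtp also read lower in the medium arrays, by -0.6 ± 0.24 in MK2-/- and -0.48 ± 0.26 in MK2/3-/- against wt, and the rise with LPS differed between MK2/3-/- and wt by -0.26 ± 0.36 (limma's adjusted p = 0.885).

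The call on Igtp lay at the edge of the threshold. It was lost in 11 of the 22 fits that left out a single array, where the difference ran from -0.85 to -0.61 and the adjusted p from 0.027 to 0.165. Those arrays were wt LPS replicates 1, 2 and 3, MK2/3-/- LPS replicates 1, 2 and 3, MK2-/- LPS replicates 1 and 2, and wt, MK2-/- and MK2/3-/- medium replicates 2, 3 and 2. Without the wt LPS replicate 1 array, which read highest, the difference was -0.61 with an adjusted p of 0.165 in limma.

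**Figure D4:**
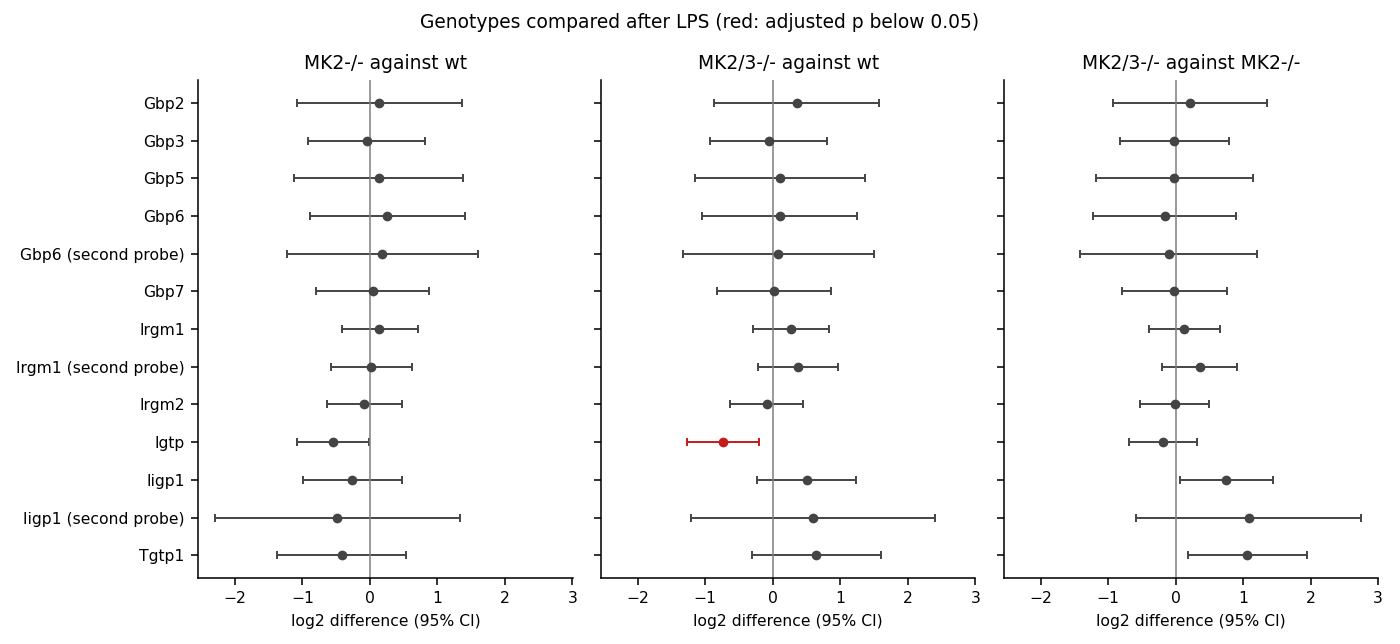
log2 differences between genotypes after LPS (x axis) for the 13 probes (y axis), with 95% confidence intervals from limma; red marks an adjusted p below 0.05. Igtp in MK2/3-/- against wt is the single red point, and in MK2/3-/- against MK2-/- the intervals of Tgtp1 and of the brighter Iigp1 probe lie above 0 without passing the adjusted test.

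For the effectors, the values of MK2/3-/- and MK2-/- BMDM after LPS are given side by side, and neither difference passed the adjusted test. Tgtp1 was at 9.77, 9.31 and 9.59 in wt, at 9.28, 9.24, 8.36 and 9.65 in MK2-/- and at 10.47, 10.41, 9.68 and 10.24 in MK2/3-/- BMDM. The 4 MK2/3-/- arrays lay above the 4 MK2-/- arrays, by 1.06 ± 0.42 on average, with limma's adjusted p of 0.102. The brighter probe named for the nearly identical Tgtp2 had a mean of 16.62 in wt BMDM after LPS. It was at 16.21 (15.36 to 16.58) in MK2-/- and 16.77 (16.47 to 16.98) in MK2/3-/- BMDM, so these groups overlapped. This Tgtp2 difference was not called either. The brighter Iigp1 probe was at 13.6, 13.13 and 13.02 in wt, at 13.41, 12.9, 12.33 and 13.35 in MK2-/- and at 14.41, 13.19, 13.4 and 14 in MK2/3-/- BMDM. Its groups overlapped, and the difference of 0.75 ± 0.33 between MK2/3-/- and MK2-/- BMDM had an adjusted p of 0.135 in limma. The second Iigp1 probe differed by 1.08 ± 0.8. Tgtp1 passed the test with the normexp background correction, at 1 with an adjusted p of 0.00543, and without the MK2-/- medium replicate 3 array, with an adjusted p of 0.0185. That array lies in neither of the groups compared, so the difference stayed at 1.06 and only its error changed. Tgtp1 was not well above background on it, at 4.26.

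By count, 0 of the 10 members were called by limma in MK2-/- against wt BMDM after LPS, 1 in MK2/3-/- against wt and 0 in MK2/3-/- against MK2-/-, where 11.6%, 23.6% and 13.5% of all genes were called. Before adjustment, limma's p was below 0.05 for 1, 1 and 2 members, and the methods' two-sample test gave 1, 2 and 1. The shares of all genes at these unadjusted thresholds were not counted. The rise with LPS was also compared between genotypes, and 0 members were called in each of the 3 comparisons. The shares of all genes called there were 0%, 0.911% and 0.067%. By brightest probe, 0 members had an unadjusted p of limma below 0.05. Over the brightest probes, the value farthest from 0 was that of Gbp5, whose rise differed by 1.19 ± 0.85 between MK2/3-/- and wt BMDM, with limma's adjusted p of 0.675. Without wt medium replicate 4 that value was 0.38 ± 0.52, and the one farthest from 0 among the comparisons with wt was Tgtp1 in MK2-/- against wt, at -0.96 ± 0.62 (limma's adjusted p = 0.767). The second Iigp1 probe, near background on several medium arrays, read larger differences from wt. They were 2.27 ± 1.17 in MK2-/- and 2.62 ± 1.22 in MK2/3-/- BMDM, with limma's adjusted p of 0.678 and 0.405. Before adjustment, limma's p of the latter was 0.0452. Without wt medium replicate 4 these differences were 1.48 ± 1.04 and 1.82 ± 1.07.

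Without LPS, 0 of 10 members were called by limma in MK2-/- against wt, in MK2/3-/- against wt and in MK2/3-/- against MK2-/- BMDM. The shares of all genes called were 8.31%, 1.96% and 2.74%. Unadjusted p-values of limma below 0.05 were found for 2, 0 and 0 members, and the methods' two-sample test gave 1, 1 and 0. For these unadjusted counts, too, no share of all genes was counted. The medians of the 5 Gbp genes were -0.7 for MK2-/- against wt and -0.55 for MK2/3-/- against wt. These values depended in part on the array of wt medium replicate 4, which read above each of the other 3 wt medium arrays for 8 of the 10 members. Its difference from the mean of the other 3 was 1.17 at the median of all 10 members, with a range of -0.06 to 3.2. On that array the other 1002 genes raised by LPS by 2 or more (log2) in wt BMDM were 0.39 higher at the median, and all genes 0.03 higher. Without wt medium replicate 4, Gbp2 differed between MK2-/- and wt medium arrays by 0.05 ± 0.38 in place of -0.7 ± 0.54, and Gbp5 by 0.18 ± 0.35 in place of -0.62 ± 0.55. Gbp3 and Gbp7 remained lower, by -0.26 ± 0.3 and -0.49 ± 0.35, and Gbp6 was at 0.59 ± 0.31. In MK2/3-/- against wt the Gbp genes then ran from -0.3 to 0.63. The median rise of the members with LPS in wt BMDM became 5.33 in place of 5.05.

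The second Iigp1 probe was the only member probe called in medium, by -2.75 ± 0.8 in MK2-/- against wt BMDM with limma's adjusted p of 0.0417. Its log2 signal was 4.06, 5.65, 5.03 and 8.09 in wt and 5.49, 2.28, 2.01 and 2.03 in MK2-/- BMDM, where the last 3 were not well above background. Without wt medium replicate 4 the difference was -1.96 ± 0.73 with an adjusted p of 0.125. Tgtp1 read 5.11 to 6.42 in wt, 4.26 to 6.79 in MK2-/- and 6.59 to 6.62 in MK2/3-/- medium arrays, and its difference of MK2/3-/- from wt was 0.92 ± 0.46, with limma's adjusted p of 0.312, although the arrays of these groups did not overlap.

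From array to array, members were often displaced in the same direction. On MK2-/- LPS replicate 3, 1 of the pair of arrays with low Y-linked signal and the array with most spots marked as outliers (2927, against 115 to 261 on the other arrays), all 10 members read below the other 3 LPS arrays of that genotype, by -0.55 at the median. On MK2-/- LPS replicate 1 and MK2/3-/- LPS replicate 1 all 10 members read above their group mean. Among the medium arrays, all 10 members lay above the group mean on MK2-/- replicate 1 and 0 of 10 on wt replicate 1. Taking the deviation from the group mean on the 11 LPS arrays, the pairs of Irg genes had a median Pearson r of 0.78, pairs of Gbp genes 0.58 and mixed pairs 0.69, and on the 11 medium arrays these were 0.33, 0.82 and 0.42, as a description over arrays that share slides and normalisation. What the low Y-linked signal and the marked spots have to do with these values was not tested.

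**Figure D5:**
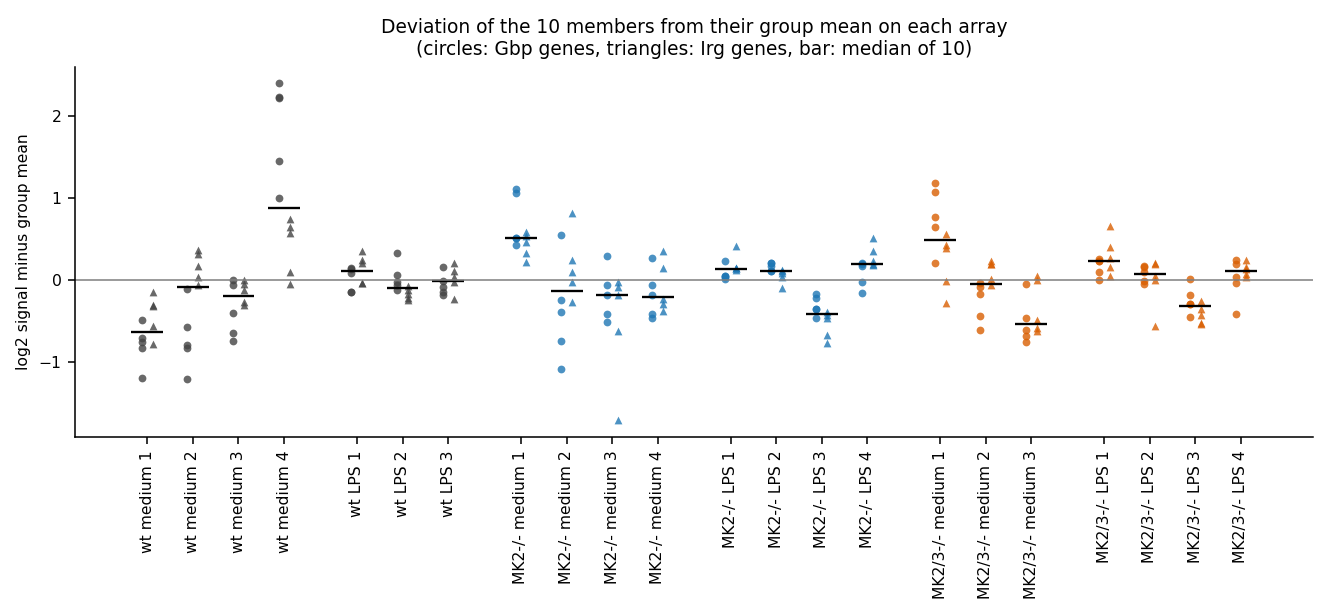
Difference of each member's log2 signal (brightest probe) from its group mean on each of the 22 arrays; circles are Gbp genes, triangles Irg genes and bars the median of the 10 members. Wt medium replicate 4 stands highest, mostly through the Gbp genes, and on MK2-/- LPS replicate 3 all members lie below 0.

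The relatives of the members rose with them. Of 19 further genes of the GBP and IRG families and of related large GTPases that were tested, 14 rose and 2 fell with LPS in wt BMDM, 14 rose and 2 fell in MK2-/-, and 15 rose and 3 fell in MK2/3-/- BMDM, and their median differences were 2.58, 2.68 and 2.57. Of all genes, 23.5% fell with LPS in wt, 27.2% in MK2-/- and 28% in MK2/3-/- BMDM. Those that fell included Atl2, an atlastin that fuses endoplasmic reticulum membranes and is no immune GTPase, by -0.6 ± 0.18 in wt. After LPS, Gbp10 was higher in MK2/3-/- than in wt BMDM by 1.28 ± 0.44 (limma's adjusted p = 0.0425), with wt arrays at 7.5 to 9.32 and MK2/3-/- arrays at 9.35 to 10.22. Without wt LPS replicate 1 that difference was 0.7 with an adjusted p of 0.275, and the call was lost in 8 of the 22 fits that left out a single array. Gm4841, an IRG gene, differed between MK2-/- and wt by -2.27 ± 0.7 (limma's adjusted p = 0.0431), and Atl2 by -0.63 ± 0.18 (limma's adjusted p = 0.0357). The Gm4841 groups overlapped and its call was lost in 15 of those 22 fits, with a difference of -1.59 and an adjusted p of 0.193 without wt LPS replicate 1. The Atl2 call was lost in 6 of them, those without any 1 of the wt LPS arrays or of MK2-/- LPS replicates 1, 2 and 3, with a highest adjusted p of 0.115. Irgq, an IRG-like protein that lacks GTPase activity, was lower in MK2/3-/- BMDM, with a difference from wt of -1.28 ± 0.27 and from MK2-/- of -1.47 ± 0.25, with limma's adjusted p of 0.00266 and 0.00076.

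In the interferon signalling list of 18 genes, 14 rose and 3 fell with LPS in wt, 13 rose and 2 fell in MK2-/-, and 11 rose and 3 fell in MK2/3-/- BMDM. Ifnb1, which encodes interferon beta, rose by 7.77 ± 0.74 in wt, 4.74 ± 0.69 in MK2-/- and 6.74 ± 0.74 in MK2/3-/- BMDM. After LPS, Ifnb1 was lower in MK2-/- than in wt BMDM by 7.14-fold, with a log2 difference of -2.84 ± 0.74 and limma's adjusted p of 0.0214, while in the same comparison the 10 members had a median difference of 0 and a range of -0.54 to 0.26. The Ifnb1 difference was -2.15 with an adjusted p of 0.108 without wt LPS replicate 3, and -2.41 with an adjusted p of 0.0652 without MK2-/- LPS replicate 2. In MK2/3-/- against wt BMDM the Ifnb1 difference was -1.78 ± 0.74, with limma's adjusted p of 0.0896. Irf1, a transcription factor that drives Gbp genes, rose by 1.89 ± 0.25 in wt, 1.76 ± 0.23 in MK2-/- and 2.26 ± 0.25 in MK2/3-/- BMDM. Irf8, another factor of the IRF family, was higher in MK2/3-/- than in wt BMDM after LPS by 1.55 ± 0.39 (limma's adjusted p = 0.00806), and Ifnar1 was lower in MK2/3-/- than in MK2-/- by -0.82 ± 0.22 (limma's adjusted p = 0.0202). The Irf8 value was 0.99 with an adjusted p of 0.066 without wt LPS replicate 1, and the Ifnar1 call was lost without MK2-/- LPS replicate 1 or 2 or MK2/3-/- LPS replicate 3, at -0.76 to -0.62. Ifng, the other inducer of these GTPases and a product of T and NK cells, read close to background. It was not well above background on any of the 4 wt medium arrays and on 1 of the 3 wt LPS arrays. Its mean log2 signal was 2.16 ± 0.21 (SD) in wt medium and 3.39 ± 0.24 in wt LPS. This wt rise of 1.23 ± 0.39 passed the test (limma's adjusted p = 0.0152). Its call was lost in 1 of the 22 fits that left out a single array. For Ifng no LPS effect was called when MK2 was missing (0.58 ± 0.36) or both kinases were (-0.18 ± 0.39).

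Markers of other cells that could be in the cultures were read beside these values. The signal summed over the T and NK cell marker probes was 5640 to 6140 on wt, 5670 to 8940 on MK2-/- and 6860 to 12200 on MK2/3-/- LPS arrays, 2 of the 8 genes were well above background on all arrays, and 1 of 7 tested genes, Cd4, was called higher in MK2/3-/- than in wt BMDM. Of 5 dendritic cell markers, 1 was called in that comparison, Xcr1, which was not well above background on any wt or MK2-/- LPS array and was so on all 4 MK2/3-/- LPS arrays, and summed signals were 48100 to 71200 on wt, 43200 to 80000 on MK2-/- and 60500 to 75000 on MK2/3-/- LPS arrays. Of 6 neutrophil markers, S100a8 was lower by -3.11 ± 0.8 and the others were not called, with a median of 0.18 and a highest value of 1.29, and with summed signals of 7450 to 12500, 4920 to 12400 and 5080 to 14900. The summed signal of 6 macrophage markers was 297000 to 397000, 368000 to 411000 and 385000 to 399000, and with LPS it was below the medium arrays of each genotype. In MK2/3-/- against MK2-/- BMDM after LPS, limma called 2 of 7 T and NK cell markers (Cd4 and Cd8a) higher. It also called 2 of 5 dendritic cell markers (Xcr1 and Flt3) and 1 of 6 neutrophil markers (Elane) higher, and 0 markers of these lists lower. Of all genes, 13.5% were called in that comparison and 23.6% in MK2/3-/- against wt after LPS, in either direction. The summed signal of 4 stromal markers was 11300 to 60500 on wt, 1590 to 18900 on MK2-/- and 1270 to 30100 on MK2/3-/- LPS arrays. The part of these cells in the values of Igtp, Tgtp1 and Iigp1 was not tested. The markers named here and, above, Tgtp2 and Gm12185 were named after their values were seen.

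In the noncanonical inflammasome list, 8 of 9 genes rose with LPS in each genotype and 0 fell. Casp4, whose product caspase-11 detects cytosolic LPS with the help of the GBPs, rose by 4.37 ± 0.27, 4.19 ± 0.25 and 4.43 ± 0.27 in wt, MK2-/- and MK2/3-/- BMDM. Its log2 signal after LPS was 16.36 ± 0.11, 16.13 ± 0.3 and 16.26 ± 0.07 (SD), and the differences of -0.23 ± 0.27 and -0.1 ± 0.27 from wt did not pass the test. Nlrp3, the sensor of the canonical inflammasome, was the gene of this list called between genotypes after LPS, higher in MK2/3-/- than in wt BMDM by 0.9 ± 0.21 (limma's adjusted p = 0.00591).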

How the data were processed

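Total RNA of BMDM was labelled with Cy3 and hybridised to 22 Agilent SurePrint G3 mouse arrays. Spot intensities were deposited as Feature Extraction (11.0.1.1) output, which is background-subtracted by that software; the deposited table of log2 values had, per the methods, been quantile normalised and centred on the median of all samples by the authors. Here log2 of the processed intensity, without control spots and outlier-marked spots, was quantile normalised over 22 arrays in R 4.3.3 and then averaged over spots of a probe. A filter on dim signal left 28103 of 55681 non-control probes, which needed an NCBI accession and a signal well above background on 3 or more arrays. Names came from RefSeq accessions (GRCm38.p6 gene table, 27509 of 29150 RefSeq probes matched). limma 3.58.1 was fitted to all 6 group means, with p-values adjusted by Benjamini-Hochberg over all kept probes. A gene counts by its brightest probe. No spot was saturated. Array number limits the precision. The members and gene lists were chosen with earlier results of these data known. Named genes were the members, the targeted genes, at most 12 list genes called between LPS-treated genotypes or in their LPS response, Ifnb1, Ifng, Irf1 and Casp4, and the 5 genes most like the members over the 11 LPS arrays; any other gene is marked as named afterwards, and 1 gene of the rule and 1 marker list are not reported here. Alternatives were another scaling, normexp background correction, the log2 table of the authors, filters, probe choice, samples, array weights, replicate blocks, the methods' two-sample test and arrays left out.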

Additional observations from a re-analysis of the deposited data

Results flagged for a closer look

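In groups of 4 arrays, an array was listed where its gap to the nearest other array, divided by the range of the group, exceeded Dixon's 95% critical value for 4 samples. Of 52 groups of member probe values examined, 8 exceeded it, and chance gives about 1 in 20. In wt medium replicate 4 the gap ratio was 0.94 for Gbp2, at a log2 signal of 13.38, and 0.97 for Gbp6, at 8.28, both highest. In MK2-/- medium, Gbp2 was highest on replicate 1 at 11.52 with a ratio of 0.89, and Gbp3 was lowest on replicate 2 at 8.99 with a ratio of 0.85. The brighter Iigp1 probe was lowest on MK2-/- medium replicate 3 at 7.89 with a ratio of 0.89, and the second Iigp1 probe was highest on MK2-/- medium replicate 1 at 5.49 with a ratio of 0.92. In MK2-/- LPS, Irgm1 was lowest on replicate 3 at 15.51 with a ratio of 0.9, and its second probe was highest on replicate 4 at 14.17 with a ratio of 0.86.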

How the results depend on the processing

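The members' 30 rises with LPS kept direction and call in all 1137 values read over the 38 alternative settings, at 2.16 to 9.31 on the log2 scale. The value of 9.31 is that of the second Iigp1 probe in MK2/3-/- BMDM, read where the probe that rose most in wt was used. For MK2/3-/- against wt after LPS, where 1 member was called, the count was 0 with all non-control probes in the fit, with only the groups compared, with array weights, with the Benjamini-Hochberg adjusted two-sample test of the methods and with a 2-fold threshold, 2 with the unadjusted two-sample test and 2 without the 3 arrays that stand apart (wt medium replicate 4 and both MK2-/- replicate 3 arrays, chosen after seeing the data), and 0 to 1 when single arrays were left out. For MK2/3-/- against MK2-/- after LPS, where 0 were called, it was 1 with normexp, with the unadjusted two-sample test and without the 3 arrays, and 0 to 1 when single arrays were left out. For MK2-/- against wt after LPS it was 1 with 75th percentile scaling and with the unadjusted two-sample test in place of 0. In medium, MK2-/- against wt had 1 with 75th percentile scaling, with the probe that rose most in wt, with the unadjusted two-sample test and without the 3 arrays, and MK2/3-/- against wt had 1 with 75th percentile scaling, with the unadjusted two-sample test and without the 3 arrays. Apart from Iigp1 on its second probe, the member concerned was Igtp or Tgtp1 each time. Fntb, a farnesyltransferase subunit called at -1.65 in MK2/3-/- against wt after LPS, read 0.47 on the probe that rose most in wt. The cause was not tested in these cases. The labels do not say that same-numbered LPS and medium arrays of a genotype come from 1 mouse. In MK2-/- they share age and array letter, and both replicate 3 arrays the low Y-linked signal. Over the genotypes, 7 of 10 same-numbered pairs had correlated deviations over 0.1 (-0.09 to 0.36), and 7 of 10 pairs with the same letter in the array name (-0.09 to 0.42). With the number or the letter as a replicate block the member counts stayed the same, and Igtp in MK2/3-/- against wt was at -0.76 and -0.74 with adjusted p of 0.0387 and 0.0472. Tgtp1 and the second Iigp1 probe are limited by their signal over background in medium.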

Other observations

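GBPs and IRGs reach a vacuole through the ubiquitin-like conjugation system of autophagy, and several GBPs are anchored in membranes by a lipid tail. Of 13 measured genes of this targeting machinery, 4 rose and 7 fell with LPS in wt, 5 and 7 in MK2-/-, and 3 and 6 in MK2/3-/- BMDM, with medians of -0.58, -0.48 and -0.37. Of all genes, 18.6% rose and 23.5% fell in wt, 17.6% and 27.2% in MK2-/-, and 20.3% and 28% in MK2/3-/- BMDM. After LPS, Sqstm1, an autophagy receptor, was lower in MK2/3-/- than in wt BMDM by -1.18 ± 0.3 (limma's adjusted p = 0.00905), and Map1lc3a, a member of the LC3 family, was higher by 0.72 ± 0.22 (limma's adjusted p = 0.0238). Of 5 prenylation enzymes, Fntb was called in that comparison, at -1.65 ± 0.56 (limma's adjusted p = 0.0393), although it was not well above background on 2 of the 4 MK2/3-/- and 1 of the 3 wt LPS arrays. The Fntb call was lost in 4 of the 22 fits without a single array, the Sqstm1 call in 1 (without wt LPS replicate 3, at -0.81) and the Map1lc3a call in 3 (without wt LPS replicate 1 or 2 or MK2/3-/- LPS replicate 1, at 0.66 to 0.73).

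Over the 11 LPS arrays, the genes outside these families whose log2 signal followed the mean standardised signal of the 10 members most closely, among 17492 genes ranked, were Znrf2 (Pearson r = 0.938), Nbn (0.928), Atrnl1 (0.919), Foxo1 (0.908) and Tmem140 (0.907). Over all 22 arrays their r was -0.728, -0.447, 0.293, -0.851 and 0.0504. Irf1 had r = 0.89 over the 11 LPS arrays and 0.969 over the 22 arrays. These arrays share slides, normalisation and the displaced MK2-/- replicate 3 array, and the values are a description.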
